A study of Mus musculus with 15 samples.

Results

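Endothelin and adrenergic signalling was followed through 8 genes in mouse ventricle: Edn1, which encodes the peptide endothelin-1; its receptors Ednra and Ednrb; the adrenergic receptors Adra1a, Adra1b and Adrb1; the receptor kinase Grk5; and Rgs2, a regulator of G protein signalling. The genes were chosen by symbol, with earlier results of these data known. All 8 were found among the 36653 gene identifiers of the expression table and among the 13121 that were tested. Ventricular RNA of C57BL/6 mice, all wild type and 10 weeks old, gave 15 libraries in 3 groups of 5, called biological replicates in the labels. Vehicle mice received saline. AngII mice carried a pump under the skin that released angiotensin II, the vessel-constricting hormone of the renin system, at a rate of 1000 ng/kg/min. AngII plus OA mice carried the same pump and were also given oleic acid (OA), the main fatty acid of olive oil, in daily doses of 160 mg/kg and 0.3 mL per mouse, so no group received OA without angiotensin II. The design asks how angiotensin II alters the ventricle and whether OA modifies that response. The sources used here do not state the length of the infusion or the solvent of OA. Levels are the authors' FPKM, which scale fragments by gene length and library size, and means are followed by the SD over 5 libraries.

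Endothelin-1 is made mainly by endothelial cells, which line the vessels, and is cut from a precursor by the enzyme Ece1. Its receptor Ednra sits on smooth muscle and heart muscle cells and couples to Gq, a G protein that activates phospholipase C, while Ednrb is best known from endothelial cells, where it clears the peptide and releases nitric oxide. Noradrenaline and adrenaline act on heart muscle through Adrb1, which couples to Gs and raises cyclic AMP, and through the alpha-1 receptors Adra1a and Adra1b, which couple to Gq as the angiotensin II receptor does. Grk5 phosphorylates active receptors so that arrestins can bind them, and Rgs2 speeds the return of Gq to its inactive state.

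None of the 8 genes passed limma's test at an adjusted p under 0.05 in any of the 3 comparisons, in which 1.5% (AngII against vehicle), 0% (AngII plus OA against AngII) and 0% (AngII plus OA against vehicle) of all tested genes passed. The 3 genes with an unadjusted limma p under 0.05 between AngII and vehicle were Grk5 and Ednrb, with higher means in AngII, and Adra1b, with a lower mean, beside 16.6% of all tested genes. The means of all 3 lay closer to vehicle in AngII plus OA than in AngII. Their limma adjusted p between AngII plus OA and AngII ran from 0.7097 to 0.737. The 3 genes were picked by their difference between AngII and vehicle, and both comparisons share the AngII libraries. The position of the AngII plus OA means is therefore not independent of that choice. Edn1 had its highest mean in AngII, but 1 library carried that mean.

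The 250 bases upstream of the annotated start are shown for Edn1, the ligand, for Ednrb and Grk5, the 2 genes with the smallest p between AngII and vehicle, and for Rgs2, the gene with the most matches to the motif searched. They were taken from RefSeq on GRCm38.p6, read 5′ to 3′ on the gene's strand, and capitals mark TGACG on either strand, the core of the cyclic AMP response element that CREB binds.

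Edn1, chr13:42301226-42301475, plus strand: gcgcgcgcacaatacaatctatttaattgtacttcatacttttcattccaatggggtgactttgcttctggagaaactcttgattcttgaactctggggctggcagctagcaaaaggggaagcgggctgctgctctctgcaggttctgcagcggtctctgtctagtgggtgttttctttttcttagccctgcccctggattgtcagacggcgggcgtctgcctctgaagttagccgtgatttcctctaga

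Ednrb, chr14:103843702-103843951, minus strand: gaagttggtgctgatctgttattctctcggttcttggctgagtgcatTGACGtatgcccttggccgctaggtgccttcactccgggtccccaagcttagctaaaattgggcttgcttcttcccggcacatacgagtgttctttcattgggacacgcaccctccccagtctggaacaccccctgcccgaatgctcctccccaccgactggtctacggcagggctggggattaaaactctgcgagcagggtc

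Grk5, chr19:60889499-60889748, plus strand: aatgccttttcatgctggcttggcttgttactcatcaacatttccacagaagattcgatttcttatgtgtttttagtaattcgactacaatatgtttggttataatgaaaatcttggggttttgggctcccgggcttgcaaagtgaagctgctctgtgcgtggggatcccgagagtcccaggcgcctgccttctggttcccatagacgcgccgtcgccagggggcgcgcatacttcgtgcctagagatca

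Rgs2, chr1:144004150-144004399, minus strand: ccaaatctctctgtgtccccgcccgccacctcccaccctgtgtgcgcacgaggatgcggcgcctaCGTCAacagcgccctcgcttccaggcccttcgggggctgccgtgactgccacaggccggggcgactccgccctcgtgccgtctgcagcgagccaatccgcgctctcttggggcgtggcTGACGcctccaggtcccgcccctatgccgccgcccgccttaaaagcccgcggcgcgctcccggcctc

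The reference table held upstream windows for the listed genes other than Adra1a, and it held 2 windows for Adra1b. TGACG was present once in the Ednrb and Adrb1 windows and 2 times in the Rgs2 window, and in 17.8% of the 32851 windows of that length. TGANTCA, the element bound by AP-1 factors, matched 1 of the Adra1b windows and 6.75% of all windows. The motif AGATAA, read by GATA factors, was found in none of the listed genes' windows and in 9.99% of all. These matches describe letters in the windows, and no binding was measured.

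AngII replicate 2 stood apart from the other 14 libraries. Summed FPKM of 8 cardiomyocyte markers was 15868 there, against 26569 to 35054 in the others, and 5 atrial muscle markers summed to 3046, against at most 750.4. Adipocyte markers (6 genes) summed to 344.5 in that library, 107.6 in AngII replicate 4 and at most 22.95 in every vehicle and AngII plus OA library, with 3, 3 and 2 of the 6 at 0 in at least 1 library of vehicle, AngII and AngII plus OA. Mesothelial markers (4 genes) summed to 74.8 against at most 13.3. Among the 8 genes, AngII replicate 2 held the highest Edn1 of the 15 libraries and the lowest Adra1a, Adra1b and Adrb1. Every cardiomyocyte marker was above 0 in every library. Library size was similar throughout, with FPKM denominators of 24.5 M to 28.3 M reads. Values for the 8 genes corresponded to 41 reads for Adrb1 in AngII replicate 2 at the low end and 3107 reads for Ednrb in AngII replicate 4 at the high end. In tissue RNA, fewer cells of a type and less RNA per cell cannot be told apart.

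Per length, Ednrb, Grk5 and Rgs2 were the most abundant of the 8 in vehicle hearts, at 10.6 ± 2.86, 9.52 ± 1.59 and 9.22 ± 1.74 FPKM, and their ranges overlapped. Ednra followed at 5.20 ± 1.16, then Adra1b at 4.11 ± 1.503, Edn1 at 3.19 ± 1.03 and Adrb1 at 2.87 ± 0.490, each overlapping its neighbour. Adra1a was lowest at 0.974 ± 0.497 FPKM. The steps from Rgs2 to Ednra and from Adrb1 to Adra1a did not overlap in vehicle, and each held within every one of the 15 libraries. Ednrb and Grk5 stayed first and second by mean in AngII and in AngII plus OA, where their ranges overlapped too. Edn1 came next by mean in AngII, above Rgs2 in 1 of 5 libraries.

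**Figure D1:**
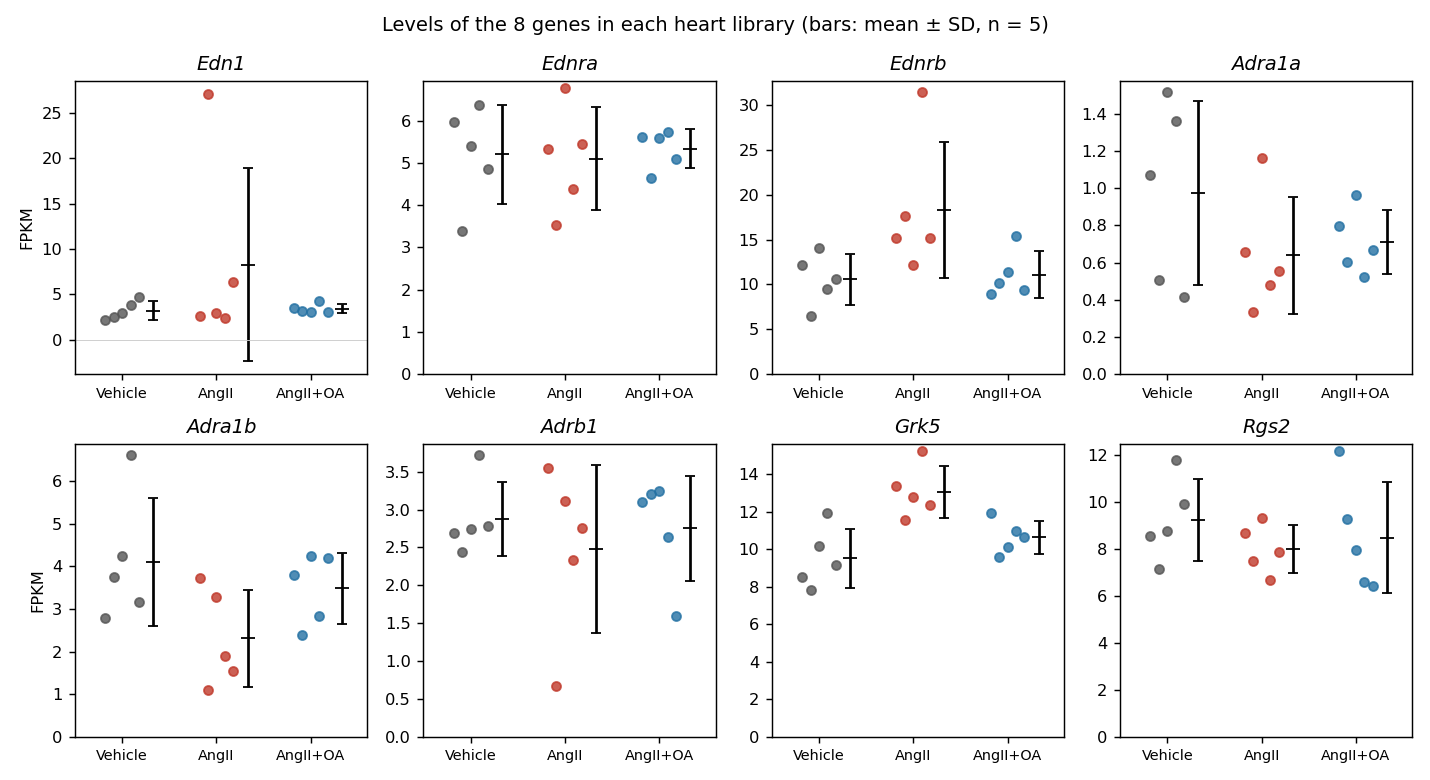
FPKM of each gene (vertical axes start at or below 0 and differ between panels) in the 5 vehicle, 5 AngII and 5 AngII plus OA libraries, ordered by replicate number within a group; horizontal ticks with bars are the mean ± SD. In the Grk5 panel 4 of 5 AngII libraries lie above every vehicle library, and in the Edn1 panel 1 AngII library stands at 27.1 FPKM.

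Edn1 (ENSMUSG00000021367), the ligand, was at 2.14, 2.48, 2.90, 3.76 and 4.69 FPKM in vehicle replicates 1 to 5. The AngII libraries were at 2.65, 27.1, 2.96, 2.34 and 6.39 FPKM, and the AngII plus OA libraries at 3.49, 3.20, 2.98, 4.23 and 3.07 FPKM. AngII replicate 2 was far above the rest, AngII replicate 5 was next, and the other 3 AngII libraries lay within the vehicle range. Edn1 averaged 8.28 ± 10.6 FPKM in AngII and 3.39 ± 0.504 in AngII plus OA. The limma difference between AngII and vehicle was 0.62 on the log2(FPKM + 1) scale (SE 0.44, adjusted p = 0.502), and without AngII replicate 2 it was 0.08. Between AngII plus OA and AngII it was -0.53 (adjusted p = 0.800) by limma, and 0.0097 without that library. The converting enzyme Ece1 was also highest in that library, at 99.7 FPKM against at most 28.9 in the other 14. Endothelial markers were uneven there: Pecam1 was at 84.3 FPKM, the highest of the 15, and Kdr, a VEGF receptor, at 7.40, the lowest, with the 8 markers together at 316 FPKM inside the range of 222 to 503.7. The part of atrial, adipocyte or mesothelial RNA in this value of Edn1 was not tested.

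Ednra (ENSMUSG00000031616), the Gq-coupled endothelin receptor, was at 5.98, 3.39, 5.41, 6.37 and 4.86 FPKM in vehicle. It was at 5.33, 3.53, 6.77, 4.39 and 5.46 FPKM in AngII and 5.62, 4.65, 5.60, 5.73 and 5.09 FPKM in AngII plus OA. The ranges of the 3 groups overlapped, and that of AngII plus OA was the narrowest. The limma difference between AngII and vehicle was -0.03, with a 95% interval of -0.35 to 0.29 on the log2(FPKM + 1) scale (adjusted p = 0.951), and between AngII plus OA and AngII 0.08, with an interval of -0.24 to 0.40 (adjusted p = 0.932).

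Ednrb (ENSMUSG00000022122), the endothelial receptor, was at 12.2, 6.52, 14.1, 9.46 and 10.6 FPKM in vehicle. The AngII libraries were at 15.1, 17.6, 12.2, 31.5 and 15.2 FPKM and the AngII plus OA libraries at 8.98, 10.2, 11.4, 15.4 and 9.36 FPKM. Of the 5 AngII libraries, 4 were above all vehicle libraries, with AngII replicate 4 highest and AngII replicate 3 inside the vehicle range, and 4 of 5 AngII plus OA libraries were below all AngII libraries. Mean levels were 10.6 ± 2.86 FPKM in vehicle, 18.3 ± 7.60 in AngII and 11.1 ± 2.62 in AngII plus OA. On the log2(FPKM + 1) scale AngII was 0.70 above vehicle (SE 0.23; limma p = 0.00781, adjusted p = 0.138; exact permutation p = 0.0238). The difference of AngII plus OA from AngII was -0.63 (SE 0.23; limma p = 0.0153, adjusted p = 0.7097; exact permutation p = 0.0317). AngII plus OA and vehicle differed by 0.08, with an interval of -0.41 to 0.56 (limma adjusted p = 0.99999). AngII replicate 4 also had the highest sum of the 8 endothelial markers, 503.7 FPKM. Of this Cldn5, a tight junction gene, was 179.8, against at most 87.6 in the other libraries. Cdh5 and Tie1 were also highest there, while Pecam1, Tek and Emcn were highest in AngII replicate 2 and Kdr and Egfl7 in vehicle replicate 2. Summed endothelial markers ran from 246 to 343 FPKM in vehicle, 279 to 503.7 in AngII and 222 to 321 in AngII plus OA, 0 of the 8 passed limma's test in any comparison, and their part in the Ednrb levels was not tested. Without AngII replicates 2 and 4, an alternative chosen after the data had been seen, the Ednrb difference between AngII and vehicle was 0.42. In that alternative 1 of the 8 genes and 1918 of 13121 tested genes had an unadjusted limma p under 0.05 between AngII and vehicle. With all libraries these counts were 3 of the 8 and 2180 of 13121. Between AngII plus OA and AngII they were 1 and 718, against 2 and 866 with all libraries.

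The balance of the 2 receptors was taken as the ratio of Ednra to Ednrb FPKM within each library, in which library scaling cancels. It was 0.506 ± 0.107 in vehicle, 0.322 ± 0.163 in AngII and 0.498 ± 0.0952 in AngII plus OA (SD, 5 libraries each). AngII replicates 2 and 4 had the lowest ratios, 0.201 and 0.140, and AngII replicate 3 the highest of its group, 0.557. The mean log2 ratio differed by -0.79 in AngII from vehicle (exact permutation p = 0.0794) and was 0.77 higher with OA than with AngII alone (exact permutation p = 0.0714), both with an adjusted p = 0.159 over the 6 ratio comparisons. In each of these 2 comparisons 11 of 12 alternatives also missed the threshold of 0.05. The exception left out AngII replicate 3, the 1 AngII library whose ratio lay among those of the other groups: the differences were then -1.03 and 1.01, each with an exact permutation adjusted p = 0.0238. Without AngII replicate 4, the library with the lowest ratio, they were -0.53 and 0.51, each with an exact permutation adjusted p = 0.254. AngII plus OA and vehicle differed by -0.02 (exact permutation p = 0.905).

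Among adrenergic receptors, Adra1b (ENSMUSG00000050541) was at 2.78, 3.74, 4.24, 6.60 and 3.16 FPKM in vehicle. The AngII libraries were at 3.74, 1.09, 3.28, 1.90 and 1.55 FPKM and the AngII plus OA libraries at 3.79, 2.39, 4.23, 2.84 and 4.19 FPKM. AngII replicates 2, 4 and 5 were below all vehicle libraries, whereas AngII replicates 1 and 3 lay among them. The mean was 4.11 ± 1.503 FPKM in vehicle, 2.31 ± 1.14 in AngII and 3.49 ± 0.831 in AngII plus OA. The difference between AngII and vehicle was -0.65 (SE 0.23; limma p = 0.0128, adjusted p = 0.166), and its exact permutation p was 0.0714. AngII plus OA was 0.49 above AngII (limma p = 0.0518, adjusted p = 0.737; exact permutation p = 0.103) and differed from vehicle by -0.16, with an interval of -0.65 to 0.33. The difference between AngII and vehicle ran from -0.79 to -0.49 with 1 library left out and from -0.87 to -0.41 over 18 alternatives. Between AngII plus OA and AngII the 18 alternatives ran from 0.25 to 0.67, and 0 passed in either comparison.

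Adra1a (ENSMUSG00000045875), the other alpha-1 receptor of heart muscle, was at 1.07, 0.505, 1.52, 1.36 and 0.415 FPKM in vehicle. It was at 0.655, 0.334, 1.16, 0.482 and 0.556 FPKM in AngII and 0.797, 0.603, 0.964, 0.523 and 0.667 FPKM in AngII plus OA. Vehicle replicates themselves differed 3.66-fold, and they spanned all libraries of the other groups except AngII replicate 2. The limma difference between AngII and vehicle was -0.25 (SE 0.17, adjusted p = 0.479), on a scale that understates changes of genes at this level. The ratio of Adra1a to Adra1b was 0.243 ± 0.122 in vehicle, 0.289 ± 0.0765 in AngII and 0.207 ± 0.0364 in AngII plus OA. Its log2 differences were 0.36 between AngII and vehicle (exact permutation p = 0.381) and -0.46 for AngII plus OA against AngII (exact permutation p = 0.0794, adjusted p = 0.159).

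Adrb1 (ENSMUSG00000035283), the main cardiac beta receptor, was at 2.69, 2.44, 2.75, 3.72 and 2.78 FPKM in vehicle. The AngII libraries were at 3.55, 0.669, 3.11, 2.33 and 2.76 FPKM and the AngII plus OA libraries at 3.10, 3.21, 3.24, 2.63 and 1.60 FPKM. AngII replicate 2 was lowest, AngII plus OA replicate 5 was next, and the other 13 libraries lay between 2.33 and 3.72 FPKM. The limma difference between AngII and vehicle was -0.22 (SE 0.22, adjusted p = 0.664) and changed sign to 0.022 without AngII replicate 2. Cardiomyocyte marker RNA was also lowest in AngII replicate 2, as given above, and its part in the levels of the 3 adrenergic receptors there was not tested.

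Of the adrenergic receptors outside the 8 genes, Adra1d, an alpha-1 receptor best known from vessels, was at 0.526 ± 0.368 FPKM in vehicle and 0.457 ± 0.335 in AngII, under the abundance needed for a test.

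**Figure D2:**
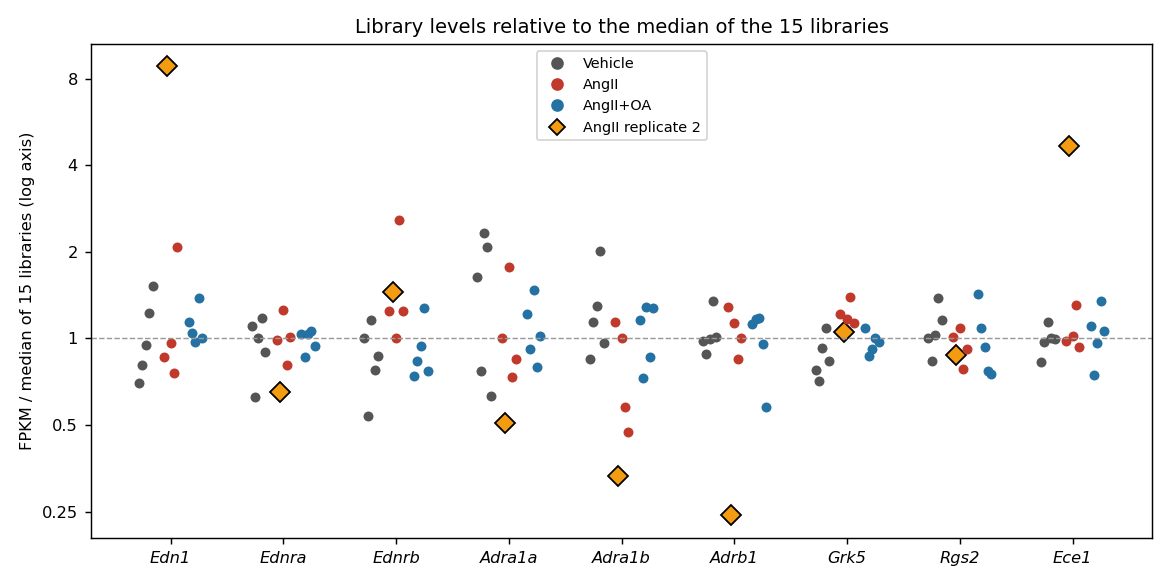
FPKM of each gene and of Ece1 in every library, divided by the median of the 15 libraries, on a log axis with the dashed line at 1; diamonds mark AngII replicate 2. That library is the highest for Edn1 and Ece1 and the lowest for Adra1a, Adra1b and Adrb1, while for Grk5 and Rgs2 it lies among the others.

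Grk5 (ENSMUSG00000003228), the receptor kinase, had the smallest p of the 8 genes. It was at 8.53, 7.83, 10.2, 11.9 and 9.15 FPKM in vehicle, 13.4, 11.6, 12.8, 15.2 and 12.4 FPKM in AngII and 11.9, 9.56, 10.1, 10.98 and 10.6 FPKM in AngII plus OA. Of the AngII libraries 4 of 5 were above every vehicle library, the exception being AngII replicate 2 just under vehicle replicate 4, and 4 of 5 AngII plus OA libraries were below every AngII library. Grk5 averaged 9.52 ± 1.59, 13.1 ± 1.39 and 10.6 ± 0.889 FPKM. AngII was 0.43 above vehicle on the log2(FPKM + 1) scale, with a 95% interval of 0.20 to 0.66 (limma p = 0.00131, adjusted p = 0.0665; exact permutation p = 0.0159). The difference of AngII plus OA from AngII was -0.27, with an interval of -0.50 to -0.04 (limma p = 0.0246, adjusted p = 0.737; exact permutation p = 0.0159), and that from vehicle 0.16, with an interval of -0.08 to 0.39. The exact tests are unadjusted and number 24, 8 genes in 3 comparisons. The AngII against vehicle difference passed limma's test without vehicle replicate 4 (adjusted p = 0.0460), without AngII replicate 2 (adjusted p = 0.0462) and among genes with a mean of at least 5 FPKM (adjusted p = 0.0495), and over 19 alternatives the adjusted p ran from 0.0460 to 0.219. Mitochondrial genes took 47.1% ± 2.52 of summed FPKM in vehicle, 41.1% ± 5.20 in AngII and 42.4% ± 3.10 in AngII plus OA. The Grk5 difference between AngII and vehicle was 0.34 after rescaling without those genes (limma adjusted p = 0.219), 0.34 after a median shift (0.118) and 0.30 after quantile normalization (0.170). Markers of fibroblasts and macrophages moved in the same comparison: 2 of 7 and 2 of 6 passed limma's test, all higher in AngII, with list medians of 0.54 and 0.55. Fibroblast markers summed to 409 to 778 FPKM in vehicle, 747 to 1213 in AngII and 547 to 1104 in AngII plus OA. Macrophage markers summed to 90.9 to 126, 127 to 208 and 115 to 173 FPKM, every marker of both lists was above 0 in every library, and their part in the Grk5 levels was not tested.

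Rgs2 (ENSMUSG00000026360) was at 8.54, 7.14, 8.75, 11.8 and 9.91 FPKM in vehicle. It was at 8.67, 7.49, 9.31, 6.68 and 7.85 FPKM in AngII and 12.2, 9.25, 7.96, 6.58 and 6.44 FPKM in AngII plus OA. AngII plus OA held both the highest and the lowest library of the 15. The means were 9.22 ± 1.74, 8.002 ± 1.02 and 8.48 ± 2.36 FPKM. The limma difference between AngII and vehicle was -0.17, with a 95% interval of -0.51 to 0.16 (adjusted p = 0.619), and that between AngII plus OA and AngII 0.05, with an interval of -0.29 to 0.38 (adjusted p = 0.964).

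Against the background of all tested genes, 197 of 13121 genes (1.5%) were called between AngII and vehicle at an adjusted p under 0.05, and 0 of the 8. Leaving out 1 library moved that count to 86, 245, 425, 70 and 49 without AngII replicates 1, 2, 3, 4 and 5 in turn. It was 156, 79, 128, 70 and 50 without vehicle replicates 1, 2, 3, 4 and 5 in turn. At an unadjusted limma p under 0.05, 16.6% of tested genes and 3 of the 8 passed. For AngII plus OA against AngII limma called 0 genes (0%), while 866 (6.6%) had an unadjusted p under 0.05, among them 2 of the 8, Ednrb and Grk5. For AngII plus OA against vehicle limma called 0 genes (0%), 441 (3.36%) had an unadjusted p under 0.05, and 0 of the 8 did. Differences in that comparison ran from -0.17 for Adra1a to 0.16 for Grk5. The first and second comparisons share the AngII libraries, so their opposite signs for Ednrb, Grk5 and Adra1b are not independent of each other. Median differences of the 8 genes were -0.10, 0.06 and -0.0041 in the 3 comparisons, beside 0.07, -0.05 and 0.02 over all tested genes.

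**Figure D3:**
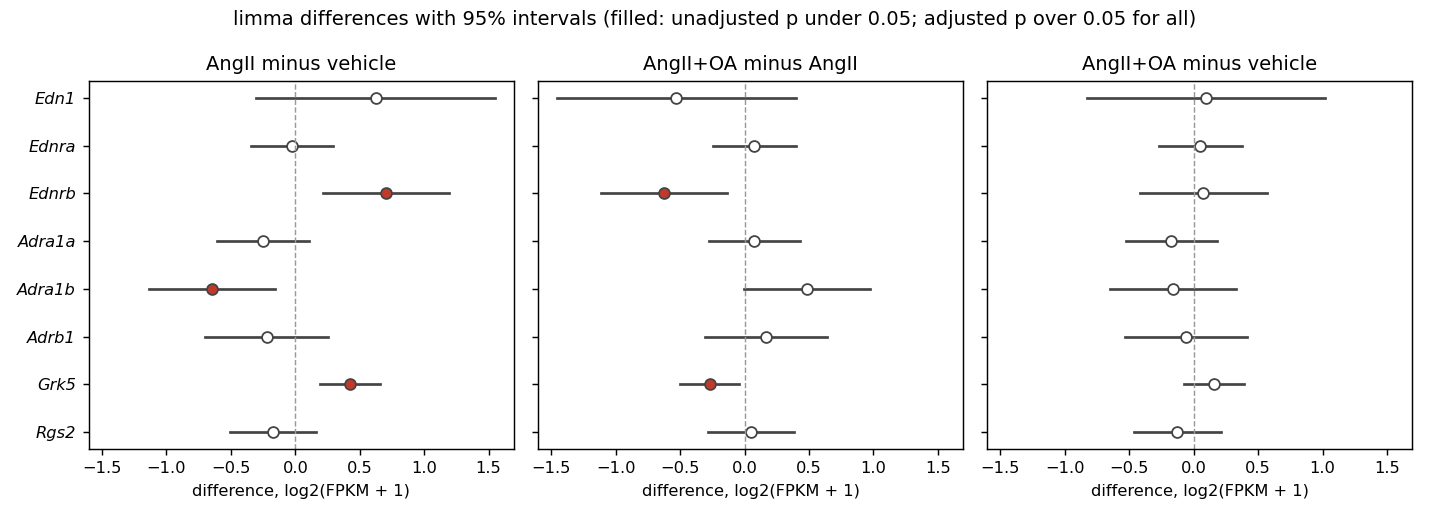
Differences of the 8 genes on the log2(FPKM + 1) scale in the 3 comparisons, with 95% intervals from limma; filled points have an unadjusted p under 0.05 and the dashed line is 0. Ednrb and Grk5 lie right of 0 in AngII minus vehicle and left of 0 in AngII plus OA minus AngII, and every interval in AngII plus OA minus vehicle covers 0.

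Other genes of the same pathways were listed by role, with earlier results of these data known, so shares of these lists are not an independent result. Of 107 listed genes 83 were tested, and 1 passed between AngII and vehicle, Gnao1, which encodes the alpha subunit of the G protein Go. Gnao1 was at 1.76 ± 0.176 FPKM in vehicle, 2.89 ± 0.590 in AngII and 2.43 ± 0.312 in AngII plus OA, and the highest vehicle library (1.999) was below the lowest AngII library (2.33). It rose by 0.49 (SE 0.11, limma adjusted p = 0.0335). The call held in 4 of 18 alternatives, and the adjusted p ran from 0.0171 to 0.109: it passed with a pseudocount of 0.1 (0.0303) and without AngII replicate 1, 2 or 3 (0.0456, 0.0465 and 0.0171) and missed without AngII replicate 4 or 5 (0.0623 and 0.0889) and without each vehicle replicate (0.0600 to 0.0768). It also missed after quantile normalization (0.0622), a median shift (0.0820) or rescaling without mitochondrial genes (0.0948), with no filter (0.0746), with the replicate number as a block (0.0701), with only the 10 libraries compared (0.109) and without AngII replicates 2 and 4 together (0.107). Unadjusted, 18 of the 83 (21.7%) had a limma p under 0.05 in this comparison, beside 16.6% of all tested genes. The shares were 7 of 83 (8.43%) beside 6.6% of all tested genes between AngII plus OA and AngII, and 4 of 83 (4.82%) beside 3.36% between AngII plus OA and vehicle.

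Upstream of the receptors, 4 of 5 genes of endothelin peptides and processing were tested and 0 passed in any comparison. Ece1 was at 21.2 ± 2.39 FPKM in vehicle, 38.1 ± 34.5 in AngII and 22.4 ± 4.69 in AngII plus OA, its AngII mean resting on replicate 2. Edn3, endothelin-3, the peptide that acts mainly through Ednrb, was at 0.828 ± 0.503, 2.39 ± 1.28 and 2.08 ± 0.802 FPKM (limma difference between AngII and vehicle 0.81, adjusted p = 0.178). Of 10 genes of catecholamine synthesis, uptake and breakdown 7 were tested and 0 passed. Maob, which breaks catecholamines down, differed by -0.41 between AngII and vehicle (limma adjusted p = 0.368). Dbh, the last enzyme of noradrenaline synthesis, was named here after its values were seen. It was at 1.12 ± 0.478 FPKM in vehicle, 0.514 ± 0.255 in AngII and 1.05 ± 0.218 in AngII plus OA (limma differences -0.47 and 0.45, adjusted p = 0.144 and 0.706). The lowest Dbh library was AngII replicate 2, at 0.121 FPKM, with the next lowest at 0.506.

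Downstream, 17 of 18 tested G protein subunit genes had a higher mean in AngII than in vehicle, with 1 passing. Their median difference was 0.18, beside 0.07 over all tested genes. The split of 17 of 18 depended on scaling: 12 of 18 were higher after quantile normalization, 11 after a median shift and 12 after rescaling without mitochondrial genes. Between AngII plus OA and AngII 2 of 18 were higher, with 0 passing, and 2 to 7 were higher under those scalings. The median there was -0.11, beside -0.05 over all tested genes. Among Gq effectors 0 of 15 passed, with 11 higher in AngII (6 to 7 under the other scalings). Their median of 0.04 lay below the 0.07 of all tested genes. The phospholipase gene Plcb4 differed by 0.40 (adjusted p = 0.130) and the protein kinase C gene Prkch by 0.43 (limma adjusted p = 0.124). Among cyclic AMP effectors 0 of 22 passed. The cyclic AMP binding protein gene Popdc2 was at 126 ± 10.3 FPKM in vehicle and 127 ± 11.9 in AngII, and Prkar1a, a regulatory subunit of protein kinase A, at 89.5 ± 13.6 and 96.6 ± 15.8.

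Of the other receptor kinases and arrestins 0 of 6 passed. Grk2, the other main cardiac receptor kinase, was at 15.1 ± 1.64 FPKM in vehicle, 14.5 ± 1.38 in AngII and 13.4 ± 1.46 in AngII plus OA, and differed by -0.06 between AngII and vehicle, with an interval of -0.27 to 0.16. Arrb2, an arrestin, differed by 0.30 (limma adjusted p = 0.607). Of 16 other RGS genes 10 were tested and 0 passed. Rgs5, a pericyte gene, was the most abundant at 232 ± 34.9 FPKM in vehicle and 272 ± 63.9 in AngII, and Rgs4 was at 7.69 ± 1.59 and 8.16 ± 3.18. AngII replicate 2 was the lowest of the 15 libraries for Arrb2, Rgs5 and Rgs4, at 3.53, 176 and 2.64 FPKM. Whether Grk5 differed from Grk2, or Rgs2 from Rgs5, in response was not tested.

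**Figure D4:**
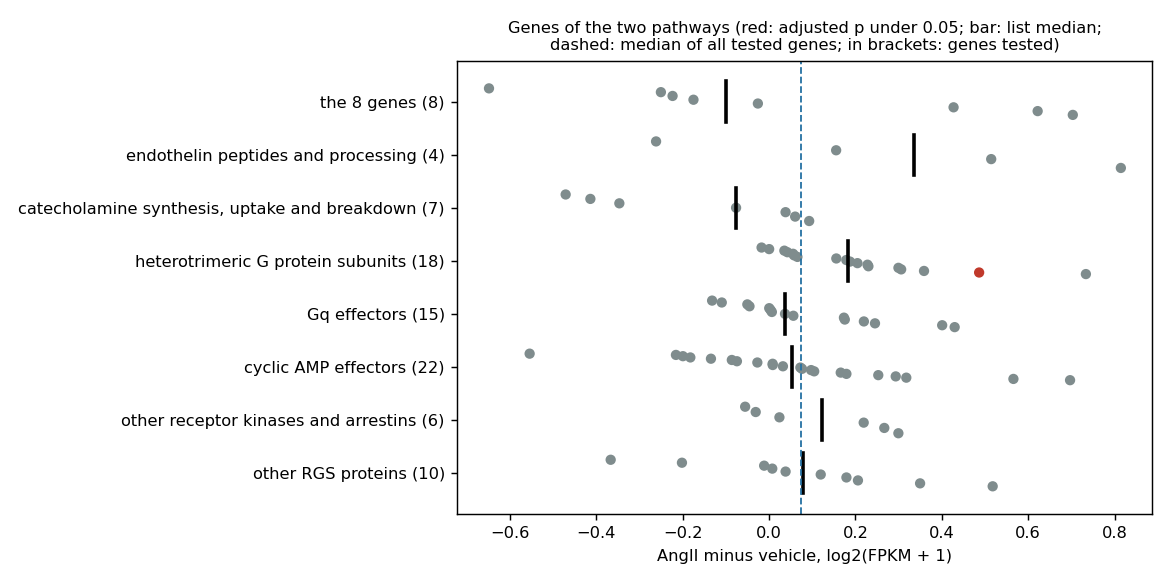
AngII minus vehicle on the log2(FPKM + 1) scale for every tested gene of each list with more than 1 tested gene, 1 point per gene; bars are list medians, the dashed line is the median of all tested genes and the red point is Gnao1, the 1 gene with an adjusted p under 0.05. The 8 genes have the lowest list median, -0.10, and the endothelin peptide and processing genes the highest, 0.33.

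The genes whose FPKM followed the 8 most closely were taken by Spearman's rho over the 15 libraries among 11308 genes with a mean of at least 1 FPKM. These values describe 15 libraries that share group, tissue mixture and scaling, AngII replicate 2 included. Ednrb went with Rasd1 (0.91) and Sema3f (0.91), and Grk5 with Ctsb (0.91), a lysosomal protease, and Laptm5 (0.90), a lysosomal protein of blood cells. Adra1a went with Arel1 and Asb15 (0.96 each), and Adra1b with Mtfp1, a mitochondrial fission gene, and Ppp1r14c (0.93 each). Adrb1 went with Kdm1b (0.88) and Pde4dip (0.88), and Ednra with Btrc (0.87) and Nudcd3 (0.86). Edn1 had the loosest first match, Arhgap21 (0.84), followed by Rpl9-ps6 (0.83), a ribosomal pseudogene whose reads may belong to other copies. Rgs2 went with AA672651 (0.89) and 2610005L07Rik (0.86).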

How the data were processed

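Poly(A)-selected RNA of 15 ventricle samples was sequenced on a HiSeq2000, per the labels' protocols. The deposited table holds FPKM per gene, computed by the authors. The submitters' processing notes name HISAT2 2.0.4 and build mm8. The sources used here do not name the counter, the annotation, the strandedness or the program behind the FPKM. Reads of overlapping antisense genes (Ednra with 4933431K23Rik, Edn1 with Gm47118) therefore cannot be told apart. Symbols came from GENCODE M21, which matched 36464 identifiers. Whole reads were recovered from the FPKM steps of the 8 genes within a tolerance of 0.03. For 3 genes the length that gave them was the M21 exon length. For Grk5 it was 3165 bases against 7055, so levels compared between genes rest on the authors' gene models.

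Tests used limma 3.58.1 (R 4.3.3) with an intensity trend on log2(FPKM + 1). Genes averaging 0.5 FPKM or more (13121) entered 1 fit of all libraries on group alone, 2-sided, Benjamini-Hochberg adjusted per comparison and called under 0.05. The script was tested on simulated data. Single values and ratios were tested by exact permutation over 252 splits (2-sided, smallest p 0.00794). The labels call the replicates biological and do not say that each is 1 mouse. The 8 genes and all lists were chosen with earlier results of these data known. Named pathway genes were up to 4 called per list, otherwise the 2 most abundant, and named neighbours the 2 highest rho per gene. A few genes that this names are not reported here. Alternatives covered pseudocount, filter, scaling, replicate block, the libraries in the fit and leaving out libraries. All columns of the table were mapped to samples.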

Additional observations from a re-analysis of the deposited data

Results flagged for a closer look

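For each of the 8 genes and 2 receptor ratios, the 5 libraries of each group were checked for 1 value far from the rest, by the gap to its nearest neighbour as a part of the group's range. Of 30 groups 3 passed the critical value of 0.71. Chance passes about 1 in 20 where values are independent and normally spread. The values here were FPKM without a log, and the ratios reuse the genes, so that rate may not hold. Edn1 in AngII replicate 2 was at 27.1 FPKM, with a gap of 0.836 of the range, in the library that also had the most Ece1, atrial, adipocyte and mesothelial RNA. Ednrb in AngII replicate 4 was at 31.5 FPKM (gap 0.717), in the library with the most summed endothelial marker RNA, 503.7 FPKM, of which Cldn5 alone was 179.8. Adrb1 in vehicle replicate 4 was at 3.72 FPKM (gap 0.734), in a vehicle group otherwise between 2.44 and 2.78 FPKM. The part of these markers in the values was not tested.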

How the results depend on the processing

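Genes called between AngII and vehicle numbered 197 (166 higher, 31 lower), 72 with no filter, 109 after quantile normalization (69 higher, 40 lower), 160 after a median shift (103 higher, 57 lower), 114 after rescaling without mitochondrial genes (77 higher, 37 lower), 70 with only the 10 libraries compared, 37 without AngII replicates 2 and 4 and 49 to 425 with 1 library left out. With the replicate number as a block 38 were called. Whether the numbers pair the libraries cannot be settled from 5 correlations per comparison. These correlations of deviations from group means ran from -0.23 to 0.21, -0.22 to 0.43 and -0.35 to 0.26 in the 3 comparisons. A library's own number was best in 0, 2 and 1 of 5. The block changed no call among the 8 genes but ended that of Gnao1 (limma adjusted p = 0.0701). Between AngII plus OA and AngII 0 to 1 genes were called with 1 library left out. Among genes with a mean of at least 5 FPKM only 4 of the 8 genes entered the test between AngII and vehicle. Of these 1 was called (Grk5), beside 138 of 5833 tested genes. With 1 library left out 0 to 1 of the 8 were called, beside the 49 to 425 of all tested genes given above. Of 460 values of the 8 genes under alternatives, 432 kept direction and side of the threshold and 24 changed sign. Without AngII replicates 2 and 4 these were, between AngII and vehicle, Ednra (0.16) and Adrb1 (0.10), and, between AngII plus OA and AngII, Ednra (-0.11), Adra1a (-0.057), Adrb1 (-0.16) and Rgs2 (-0.051). After rescaling without mitochondrial genes Ednra (-0.036) and Ednrb (-0.018) changed sign between AngII plus OA and vehicle. With 1 library left out, differences that changed sign ran, between AngII and vehicle, from -0.14 to 0.075 for Ednra and -0.34 to 0.022 for Adrb1. Between AngII plus OA and AngII they ran from -0.76 to 0.0097 for Edn1, -0.024 to 0.17 for Ednra, -0.081 to 0.29 for Adrb1 and -0.079 to 0.13 for Rgs2. Between AngII plus OA and vehicle they ran from -0.0025 to 0.21 for Edn1, -0.068 to 0.12 for Ednra, -0.071 to 0.18 for Ednrb and -0.11 to 0.068 for Adrb1. In the same setting the log2 Ednra/Ednrb ratio ran from -1.03 to -0.53, 0.51 to 1.01 and -0.11 to 0.090, and Adra1a/Adra1b from 0.17 to 0.56, -0.63 to -0.37 and -0.29 to 0.10. The causes were not tested. Adra1a (67 to 316 reads per library) and Adrb1 (41 to 248) rested on the fewest reads.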

Other observations

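Gnas and Tagln, which heart tissue usually expresses strongly, were listed at low levels. Gnas, which encodes the alpha subunit of Gs, was at 0.0874 to 0.490 FPKM, and Tagln, a smooth muscle marker, at no more than 0.329 FPKM. The handling of reads shared with overlapping genes is unknown here, so both are reported as values only. Adrb3, the beta receptor of adipocytes, reached 0.726 FPKM in AngII replicate 4, which also had more adipocyte marker RNA than any other library except AngII replicate 2. Every other library, AngII replicate 2 included, was at no more than 0.156 FPKM of Adrb3. Adrb3 averaged 0.0792 FPKM over the 15 libraries, and the part of adipocyte RNA in its values was not tested.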
